A study of Mus musculus with 15 samples.

Results

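Macrophages are phagocytes of the innate immune system, and in the embryo they are first produced in the yolk sac and then seed the tissues through the circulation. They depend on signals through the receptor Csf1r, clear dying cells with scavenger and complement proteins, and are found in the aorta-gonad-mesonephros (AGM) region, where hematopoietic stem cells arise from the wall of the aorta. This account follows 10 genes that macrophages are known to express, namely Csf1r, Cx3cr1, Mrc1, Lyz2, C1qa, C1qb, C1qc, Fcer1g, Aif1 and Ptprc. They were taken by name from the 28876 genes listed in the expression table, each name matched 1 row, and all 10 were among the 18553 genes that reached 0.5 reads-per-million (RPM) in at least 1 library and were tested. RPM scales the reads of a gene to those assigned to all genes in that library, and it is not adjusted for gene length.

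RNA was sequenced from tissue of C57BL/6 mouse embryos carrying the CD45.2 allele of Ptprc, with no other allele or treatment named for any group. At stage E9.5 (E9) the dorsal part (AoD) and the ventral part (AoV) of the dorsal aorta with its surroundings were taken, and at stage E10.5 (E10) the same regions were taken, and also the urogenital ridges (UGR) that flank the aorta. This gave 5 groups, AoD and AoV at E9 and AoD, AoV and UGR at E10, each with 3 libraries. Each library came from a pool of tissue from 15 to 34 embryos, collected in separate experiments, so that differences between single embryos cannot be seen and p-values measure the spread between pools.

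Depth, inferred from the spacing of low values, lay between 33.7 and 48.6 M reads per library (M, megareads), and 3 reads corresponded to 0.0617 to 0.089 RPM. The dissected tissue was never sorted, so every library holds many cell types. The group labels matched their tissue markers for E9 AoD against E9 AoV and for E10 UGR against E10 AoD. The neural tube list summed to at least 178 RPM in each E9 AoD library and at most 16.9 RPM in each E9 AoV library. The urogenital ridge list summed to at least 706 RPM in E10 UGR and at most 77.5 RPM in E10 AoD. In E10 AoV it summed to 543 to 562 RPM, below UGR but far above AoD. As for the label macrophage, all 10 members had reads in every E10 library and 24 of 30 other macrophage genes reached the level needed for testing, but other blood cells carry several of these transcripts too, so the name describes the genes and not a count of cells. In bulk tissue, fewer cells of a type and less RNA per cell cannot be told apart.

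The promoters of several members carry short sequences read by PU.1, the transcription factor encoded by Spi1 that myeloid cells require. Promoter sequences from RefSeq (GRCm38.p6) were at hand for 8 members, and the 250 bases before the start site were searched on both strands in 9 promoters of these genes, with Csf1r left out. The letters GAGGAA, or TTCCTC on the other strand, occurred in 5 of the 9 promoters, those of Ptprc, Mrc1, C1qb, C1qc and Aif1, and in 23.3% of 32851 mouse promoters of the same length. The letters TGTGGT, which RUNX proteins read, were found before C1qc, Cx3cr1 and Lyz2, against 14% of all promoters. TTGCNNAA, TGANTCA and TGCTGAC, read by CEBP, AP-1 and MAF proteins, were in none of the 9 windows and in 9.56%, 6.75% and 3.81% of all promoters, and TATAAA was found before Ptprc only, against 12.4%. A match describes letters in a window and is not evidence of binding. The windows of the genes that make 2 of the C1q chains, of the gene with the most matches, and of the least abundant member are shown with the PU.1 letters in capitals, 5′ to 3′ along the strand of the gene.
C1qb promoter, chr4:136886201-136886450, - strand: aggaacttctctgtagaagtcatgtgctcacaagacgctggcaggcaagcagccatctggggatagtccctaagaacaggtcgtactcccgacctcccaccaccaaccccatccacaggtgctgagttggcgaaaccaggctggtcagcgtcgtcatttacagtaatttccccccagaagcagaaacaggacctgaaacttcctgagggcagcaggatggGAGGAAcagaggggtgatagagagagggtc
C1qc promoter, chr4:136892915-136893164, - strand: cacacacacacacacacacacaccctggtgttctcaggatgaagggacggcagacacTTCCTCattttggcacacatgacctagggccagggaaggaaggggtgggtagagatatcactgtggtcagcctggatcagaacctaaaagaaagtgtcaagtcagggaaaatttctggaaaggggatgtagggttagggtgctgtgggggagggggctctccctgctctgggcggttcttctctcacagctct
Mrc1 promoter, chr2:14229164-14229413, + strand: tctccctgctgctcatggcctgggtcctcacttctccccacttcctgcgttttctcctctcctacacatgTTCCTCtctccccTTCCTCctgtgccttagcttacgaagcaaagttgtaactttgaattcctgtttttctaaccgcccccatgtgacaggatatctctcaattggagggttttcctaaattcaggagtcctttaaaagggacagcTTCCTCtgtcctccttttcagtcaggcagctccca
Aif1 promoter, chr17:35176053-35176302, - strand: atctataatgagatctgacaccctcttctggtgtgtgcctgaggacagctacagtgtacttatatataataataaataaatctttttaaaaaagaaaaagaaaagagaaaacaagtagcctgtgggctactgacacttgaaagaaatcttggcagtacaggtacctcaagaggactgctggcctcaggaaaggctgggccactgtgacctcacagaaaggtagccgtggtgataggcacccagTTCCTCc
Counted back from the start site, the capitals begin 30 bases before C1qb, 193 bases before C1qc, 180, 167 and 35 bases before Mrc1 and 7 bases before Aif1.

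The first comparison asked how the members changed as the AGM region passed from E9 to E10, in ventral and in dorsal tissue separately. All 10 members rose in both. In the fit of limma on log2(RPM + 0.1), with 1 mean per group over all 15 libraries and Benjamini-Hochberg adjustment over the tested genes, calls needed an adjusted p below 0.05 together with a log2 fold change of at least 1 in size. In AoV 10 of 10 members were called higher at E10, against 6.04% of all tested genes, and the median of their log2 fold changes was 2.40, against -0.00163 for all tested genes. In AoD 10 of 10 were called higher, against 8.6% of all tested genes, with a median of 3.97 against -0.00187. The share of all tested genes called higher in both was 3.25%. In each region every E10 library lay above every E9 library for all 10 members, which was so for 27.7% of genes in AoV and 31.3% in AoD.

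**Figure D1:**
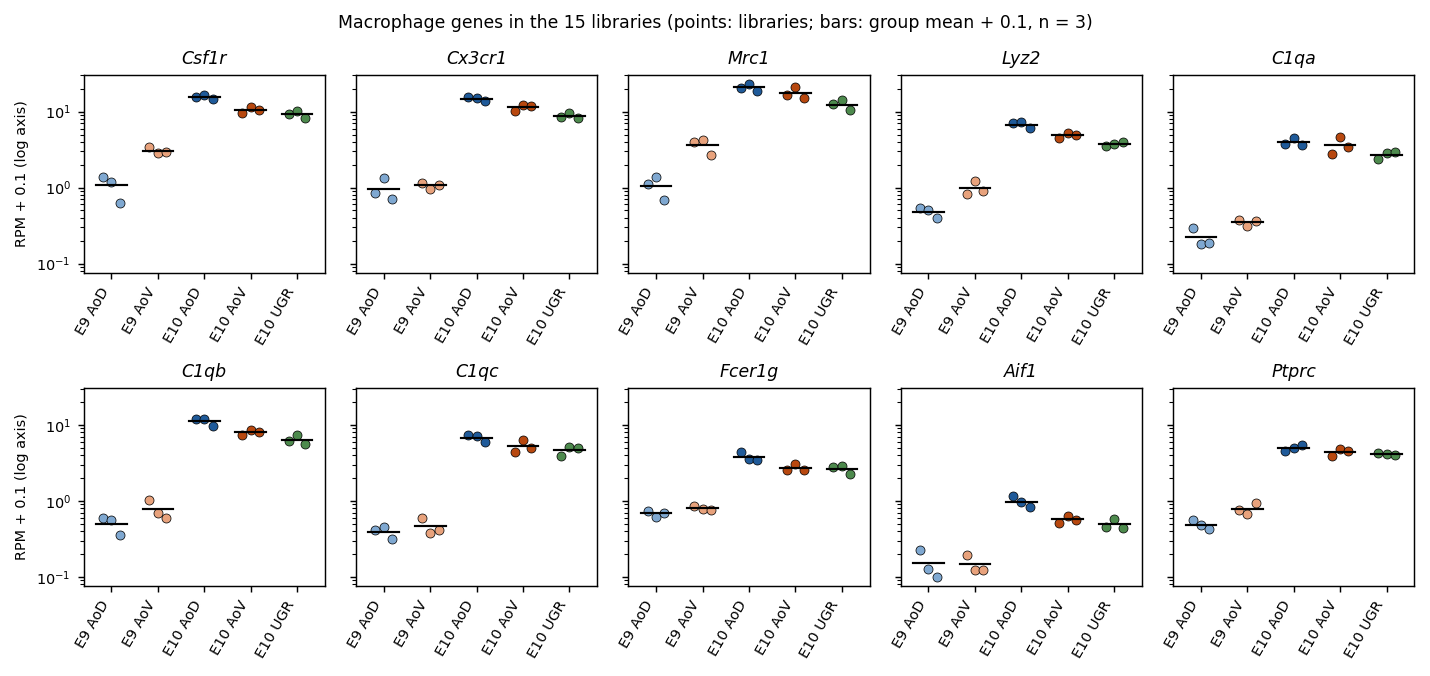
Level of each macrophage gene in each of the 15 libraries, as RPM + 0.1 on a log axis, by group. Points are libraries and bars are group means with n = 3. All E10 points of a gene lie above all its E9 points, and E10 AoD has the highest mean in each panel.

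Surface receptors formed the first set. Csf1r encodes the receptor for the growth factors Csf1 and Il34 and lies on chromosome 18. It measured 1.3, 1.1 and 0.534 RPM in E9 AoD and 3.3, 2.78 and 2.85 RPM in E9 AoV. At E10 it measured 15.6, 16.5 and 14.6 RPM in AoD, 9.52, 11.5 and 10.3 RPM in AoV and 9.27, 10.1 and 8.19 RPM in UGR. The 2 E9 groups did not overlap, E10 AoD lay above the other E10 groups, and E10 AoV and UGR overlapped. Csf1r rose 15.3-fold in AoD (log2 fold change 3.94, SE 0.21, adjusted p = 2.12e-09 by limma) and 3.42-fold in AoV (1.78, SE 0.21, adjusted p = 7.31e-06 by limma). Its exons overlap those of Hmgxb3 on the other strand over 871 bases, and 15.7% of its 50-base windows are also found there. The library kit, as it is named, does not mark strand, so reads of that stretch cannot be told apart. Hmgxb3 measured 48.5 to 63.1 RPM over all libraries, far above Csf1r, most of all at E9. It stood at -0.27 in AoD and -0.11 in AoV on the log2 scale from E9 to E10. The part of its reads in the Csf1r values was not tested.

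Mrc1, the mannose receptor CD206 (chr2:14151041-14253684, + strand, on NCBIM37 as for all gene positions, unlike the promoters), is a scavenger receptor of tissue macrophages and of some endothelia. It measured 1.03, 1.29 and 0.577 RPM in E9 AoD and 3.92, 4.17 and 2.61 RPM in E9 AoV. It reached 20.5, 23.4 and 18.7 RPM in AoD, 16.6, 20.8 and 15.2 RPM in AoV and 12.4, 14.2 and 10.3 RPM in UGR at E10. Like Csf1r it was already higher in ventral than in dorsal tissue at E9, and at E10 the AoD and AoV ranges overlapped while UGR lay below both. It rose 20.5-fold in AoD (log2 fold change 4.35, SE 0.232, adjusted p = 2.12e-09 by limma) and 4.86-fold in AoV (2.28, SE 0.232, adjusted p = 1.61e-06 by limma).

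Cx3cr1 (chr9:119957811-119977400, - strand) encodes the receptor of the membrane-bound chemokine Cx3cl1 and marks microglia and their yolk sac precursors. It measured 0.737, 1.24 and 0.599 RPM in E9 AoD and 1.05, 0.858 and 0.998 RPM in E9 AoV, so the ventral range lay inside the dorsal one. At E10 it measured 15.3, 15.1 and 13.7 RPM in AoD, 9.99, 12.3 and 11.9 RPM in AoV and 8.47, 9.64 and 8.08 RPM in UGR, and these 3 ranges did not overlap. The rise was 16-fold in AoD (log2 fold change 4.0, SE 0.181, adjusted p = 5.79e-10 by limma) and 10.7-fold in AoV (3.43, SE 0.181, adjusted p = 2.62e-09 by limma).

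Ptprc, the phosphatase CD45 that white blood cells carry (chr1:139959438-140071882, - strand), measured 0.467, 0.376 and 0.321 RPM in E9 AoD and 0.661, 0.58 and 0.832 RPM in E9 AoV. It measured 4.48, 4.89 and 5.35 RPM in AoD, 3.76, 4.66 and 4.38 RPM in AoV and 4.18, 4.09 and 3.97 RPM in UGR at E10. E10 AoD and E10 UGR differed less for this gene than for any other member, and E10 AoV overlapped both. It rose by 3.37 (SE 0.144) in AoD and 2.47 (SE 0.144) in AoV on the log2 scale, with adjusted p = 3.73e-10 and 5.94e-09 by limma.

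The second set holds the genes of the complement component C1q, which binds immune complexes and dying cells, and whose A, B and C chains are assembled into 1 protein. The 3 genes lie side by side on the - strand of chromosome 4, C1qb at chr4:136436044-136442102, C1qc at chr4:136445719-136448980 and C1qa at chr4:136451832-136454718. C1qb measured 0.492, 0.457 and 0.257 RPM in E9 AoD and 0.934, 0.603 and 0.499 RPM in E9 AoV. It reached 11.9, 11.8 and 9.68 RPM in AoD, 7.29, 8.62 and 7.99 RPM in AoV and 6.13, 7.26 and 5.52 RPM in UGR at E10. It rose 22.8-fold in AoD (log2 fold change 4.51, SE 0.208, adjusted p = 6.87e-10 by limma) and 10.6-fold in AoV (3.41, SE 0.208, adjusted p = 9.85e-09 by limma).

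C1qc measured 0.32, 0.349 and 0.214 RPM in AoD and 0.501, 0.278 and 0.309 RPM in AoV at E9, and 7.25, 7.03 and 5.85 RPM in AoD, 4.33, 6.19 and 4.84 RPM in AoV and 3.85, 4.98 and 4.93 RPM in UGR at E10. It rose 11.4-fold in AoV (log2 fold change 3.51, SE 0.198, adjusted p = 4.72e-09 by limma) and 17.4-fold in AoD (4.12, SE 0.198, adjusted p = 9.58e-10 by limma). Its ranges in dorsal and ventral tissue overlapped at both stages.

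C1qa measured 0.197, 0.0806 and 0.0855 RPM in AoD and 0.274, 0.209 and 0.261 RPM in AoV at E9, and 3.61, 4.42 and 3.57 RPM in AoD, 2.65, 4.6 and 3.28 RPM in AoV and 2.25, 2.78 and 2.84 RPM in UGR at E10. At E9 it rested on few reads, 15 over the 3 AoD libraries and 32 over the 3 AoV libraries. It rose by 4.20 (SE 0.217) in AoD and 3.34 (SE 0.217) in AoV on the log2 scale, with adjusted p = 1.62e-09 and 1.70e-08 by limma. From summed reads the ratio of E10 to E9 was 32.0 in AoD (exact 95% counting interval 19.2 to 57.7) and 14.1 in AoV (9.86 to 20.9), where the pseudocount of 0.1 RPM lowers the fitted fold. By the same measure C1qb rose 28.2-fold in AoD (21.2 to 38.3) and C1qc 14-fold in AoV (10.4 to 19.3), so the intervals of the chains overlapped and their order depends on the pseudocount. Counting intervals leave out the spread between pools.

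The proportions of the C1q chains were compared within libraries. C1qc was 0.749 ± 0.092 (SD, n = 3) of C1qb in AoD and 0.539 ± 0.0791 in AoV at E9, and 0.603 ± 0.00682 in AoD, 0.639 ± 0.0685 in AoV and 0.736 ± 0.139 in UGR at E10. C1qa was between 0.303 and 0.436 of C1qb in the group means. These are ratios of RPM within a library, are not adjusted for length, and were compared with no test.

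The third set holds intracellular and secreted proteins of myeloid cells. Fcer1g (chr1:173159703-173164496, - strand) encodes the common gamma chain that activating Fc receptors signal through, and it is shared with mast cells, basophils and other myeloid cells. It measured 0.639, 0.511 and 0.599 RPM in E9 AoD and 0.752, 0.672 and 0.666 RPM in E9 AoV. At E10 it measured 4.36, 3.49 and 3.34 RPM in AoD, 2.44, 2.97 and 2.47 RPM in AoV and 2.73, 2.8 and 2.17 RPM in UGR. It rose 5.59-fold in AoD (log2 fold change 2.48, SE 0.143, adjusted p = 3.96e-09 by limma) and 3.41-fold in AoV, close to Csf1r (1.77, SE 0.143, adjusted p = 1.48e-07 by limma).

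Aif1, the calcium-binding protein Iba1 (chr17:35307936-35313013, - strand), was the member with the lowest level. It measured 0.123, 0.0269 and 0 RPM in E9 AoD and 0.0912, 0.0232 and 0.0238 RPM in E9 AoV, which were 6 reads over each group of 3. It measured 1.05, 0.853 and 0.734 RPM in AoD, 0.415, 0.537 and 0.466 RPM in AoV and 0.356, 0.473 and 0.338 RPM in UGR at E10. AoD lay above AoV at E10 without overlap, and at E9 no difference was detectable at this depth. The fitted rise was 2.78 (SE 0.275) in AoD and 2.0 (SE 0.275) in AoV on the log2 scale, with adjusted p = 7.91e-07 and 3.28e-05 by limma. With a pseudocount of 1 RPM in place of 0.1 RPM it was 0.84 and 0.49, under the threshold on the fold. From summed reads the ratio was 18.2 in AoD (exact 95% counting interval 8.08 to 50.7) and 10.2 in AoV (4.39 to 28.8).

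Lyz2 (chr10:116714390-116719377, - strand) encodes lysozyme M, the bacteriolytic enzyme of macrophages and granulocytes. It measured 0.432, 0.409 and 0.302 RPM in E9 AoD and 0.728, 1.13 and 0.815 RPM in E9 AoV. It measured 6.93, 7.12 and 5.95 RPM in AoD, 4.43, 5.16 and 4.89 RPM in AoV and 3.39, 3.69 and 3.94 RPM in UGR at E10. No pair of groups overlapped. The rise was 14.1-fold in AoD (log2 fold change 3.82, SE 0.154, adjusted p = 2.27e-10 by limma) and 5.03-fold in AoV (2.33, SE 0.154, adjusted p = 1.96e-08 by limma).

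Lyz2 shares reads with its near copy Lyz1, since 15.4% of its 50-base windows also occur in Lyz1, and the counting divided such reads between the genes. Lyz1, which is no member and is known from Paneth cells, measured 0.269, 0.608 and 0.414 RPM in E10 AoD but 2.5, 2.82 and 2.93 RPM in E10 AoV and 1.73, 1.37 and 2.22 RPM in E10 UGR. It was 6.04% ± 2.11 (SD, n = 3) of the sum of both genes in AoD, 36.3% ± 1.08 in AoV and 32.3% ± 4.66 in UGR at E10. When the genes were fitted as their sum, the rise with stage was 3.81 in AoD and 2.82 in AoV on the log2 scale. The sum in E10 AoV stood 0.095 above that in E10 AoD (adjusted p = 0.661 by limma), whereas Lyz2 alone stood at -0.46. The sum also holds reads that match Lyz1 alone, so it cannot decide the order of Lyz2 between ventral and dorsal tissue at E10. How the division of shared reads bears on that order was not tested.

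**Figure D2:**
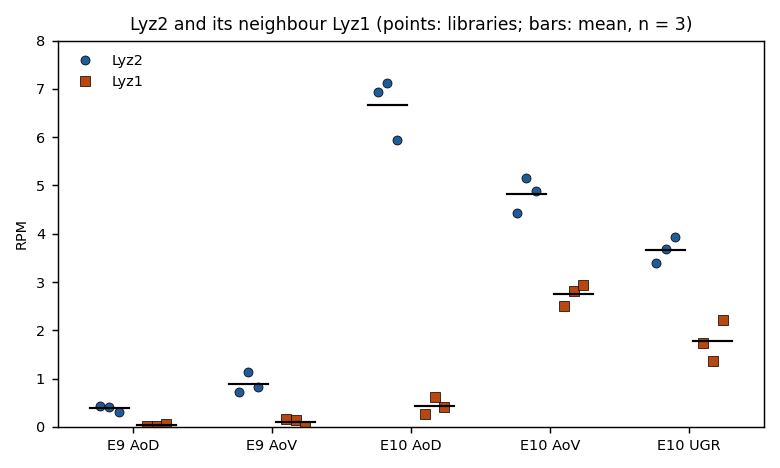
RPM of Lyz2 and of its near copy Lyz1 in each library by group, on a linear axis. Points are libraries and bars are means with n = 3. Lyz2 is highest in E10 AoD and Lyz1 in E10 AoV.

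Compared per length, as RPM per kilobase of annotated exon, C1qb had the highest level of the members in each E10 group, 10.2 ± 1.15 (SD, n = 3) in AoD, 7.32 ± 0.612 in AoV and 5.79 ± 0.811 in UGR. At E9 Fcer1g was highest, at 0.729 ± 0.0819 in AoD and 0.871 ± 0.06 in AoV. Aif1 was lowest throughout, from 0.0301 ± 0.0255 in E9 AoV to 0.574 ± 0.104 in E10 AoD. Ptprc, which has many alternative exons, was next to lowest in every group.

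The second question was whether the change with stage differed between ventral and dorsal tissue. The point estimate of the change was smaller in AoV for all 10 members, and the difference itself, tested as the interaction of stage and position in the same fit, was called for 4 of them, against 6.89% of all tested genes called in this direction. On the log2 scale the change in AoV minus the change in AoD was -2.16 (SE 0.297, adjusted p = 7.23e-05 by limma) for Csf1r, -2.07 (SE 0.329, adjusted p = 0.000243) for Mrc1, -1.49 (SE 0.217, adjusted p = 0.000121) for Lyz2 and -1.10 (SE 0.295, adjusted p = 0.0112) for C1qb. For Lyz2 summed with Lyz1 it was -0.99, just under the threshold on the fold and not called. Fcer1g (-0.71, adjusted p = 0.0158) and Ptprc (-0.89, adjusted p = 0.00392) had an adjusted p below 0.05 without reaching the fold, so that 6 members passed with no fold threshold, against 16.3% of all tested genes in this direction. C1qa (-0.85), Aif1 (-0.78), C1qc (-0.61) and Cx3cr1 (-0.58) had adjusted p between 0.0505 and 0.161. The dorsal and ventral changes share no library. Same-numbered E9 AoD and E9 AoV libraries were taken as paired, however, and the fit did not use this pairing. Same-numbered E10 libraries may be paired too. The member count fell to 2 with a pseudocount of 1 RPM, it was 6 with 0.02 RPM, when C1qa (-1.18) and Ptprc (-1.0) were also called, and it was 7 without E9 AoD replicate 1, when C1qa, Aif1 and Ptprc were also called.

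**Figure D3:**
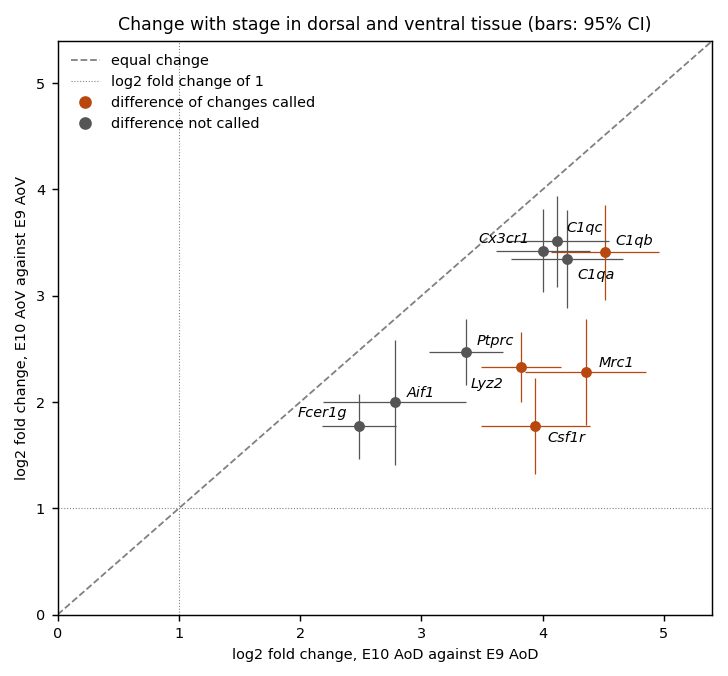
Log2 fold change from E9 to E10 of each member in AoD (x axis) and in AoV (y axis), with 95% confidence intervals from limma. All 10 genes lie below the dashed line of equal change, and Csf1r, Mrc1, Lyz2 and C1qb, whose difference was called, are in orange.

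The third comparison set ventral against dorsal tissue at E9, where 3 of 10 members, Mrc1, Csf1r and Lyz2, were higher in AoV, against 8.32% of all tested genes. Mrc1 was 3.52-fold higher (log2 fold change 1.82, SE 0.232, adjusted p = 1.43e-05 by limma), Csf1r 3.0-fold (1.59, SE 0.21, adjusted p = 2.01e-05) and Lyz2 2.05-fold (1.03, SE 0.154, adjusted p = 6.03e-05). Ptprc (0.70, adjusted p = 0.00103), C1qa (0.69, adjusted p = 0.0166) and C1qb (0.63, adjusted p = 0.0221) had an adjusted p below 0.05 but not the fold, so that 6 members passed with no fold threshold, against 27.5% of all tested genes. Fcer1g (0.22), C1qc (0.22), Cx3cr1 (0.21) and Aif1 (0.014) did not pass. The E9 ranges did not overlap for 7 members, against 28.7% of genes in this direction. For Lyz2 the call was close to the threshold, and its value was 0.45 with a pseudocount of 1 RPM, 0.77 after quantile normalization, 0.91 without E9 AoD replicate 3 and 0.87 without E9 AoV replicate 2, none of them called.

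The members made up different shares of their own summed RPM at E9. Mrc1 took 31.8% ± 5.22 (SD, n = 3) of the sum in E9 AoV and 18.9% ± 2.89 in E9 AoD, and Csf1r took 26.8% ± 2.16 and 18.9% ± 3.68. Cx3cr1 took 8.77% ± 1.27 in E9 AoV and 17.1% ± 4.2 in E9 AoD. In the E10 groups Mrc1 took 22.5% to 25.7%, Csf1r 15.3% to 17.5% and Cx3cr1 16% to 16.8% in the group means. The shares sum to the whole within a library, so they cannot move independently, and they were not tested.

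Markers of other cells stood beside the ventral excess at E9. The sums of the liver and endoderm list were 578 to 856 RPM in E9 AoV and 31.9 to 59.5 RPM in E9 AoD, with 8 of 9 genes called higher, Afp among the most changed. The endothelium list summed to 762 to 836 RPM in E9 AoV and 384 to 533 RPM in E9 AoD, with 2 of 11 called higher, Stab2 and Tek. Stab2 and Lyve1, receptors of sinusoidal endothelium that some macrophages also carry, measured 7.89, 10 and 7.08 RPM and 7.27, 9.81 and 8.58 RPM in E9 AoV, against 0.983, 0.887 and 0.577 RPM and 0.91, 0.994 and 0.428 RPM in E9 AoD. The neural tube list moved the other way, at 178 to 336 RPM in E9 AoD and 13.5 to 16.9 RPM in E9 AoV, with 6 of 6 genes lower in AoV. E9 AoD replicate 3, which had the lowest value of its group for 8 of the 10 members and a member sum of 3.49 RPM against 5.74 and 5.84 RPM, had the highest neural tube sum of the group. The part of these cells in the member values was not tested. In the fit with Lyz1 and Lyz2 summed, 11.8% of all tested genes were called in either direction between E9 AoV and E9 AoD.

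At E10 the point estimates lay the other way. In E10 AoV against E10 AoD 0 of 10 members were called by limma, where 5.81% of all tested genes were called higher and 4.29% lower. All 10 point estimates were below 0, from -0.77 for Aif1 to -0.16 for C1qa. With no fold threshold 4 had an adjusted p below 0.05, against 15.3% of all tested genes in this direction. These were Csf1r (-0.57, adjusted p = 0.0457), Lyz2 (-0.46, adjusted p = 0.0309), Fcer1g (-0.49, adjusted p = 0.015) and Aif1 (-0.77, adjusted p = 0.0421). The ranges did not overlap for 6 members, against 21.6% of genes in this direction. E10 AoV replicate 2 was the highest library of its group for all 10 members, with a sum of 77.3 RPM against 61.4 and 65.7 RPM, and E10 AoD replicate 3 was the lowest of its group for 9 of them. Without E10 AoV replicate 1, C1qa stood at 0.014.

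The urogenital ridges served as the E10 tissue outside the aorta. E10 AoV also held a high urogenital ridge list sum, 543 to 562 RPM against 706 to 766 RPM in UGR. The part of shared tissue in the member differences was not tested. In E10 AoV against E10 UGR 0 of 10 members were called by limma, with 3.84% of all tested genes called higher and 3.73% lower. With no fold threshold 0 of 10 passed, against 29.1% of all tested genes in either direction. The differences ran from 0.035 (95% CI -0.27 to 0.34) for Fcer1g to 0.51 (0.010 to 1.0) for Mrc1 on the log2 scale. The ranges did not overlap for 4 members, against 18.8% of genes in this direction. In E10 AoD against E10 UGR 0 of 10 were called by limma, with 4.76% of all tested genes called higher and 6.56% lower. With no fold threshold 8 of 10 were higher in AoD, against 14.5% of all tested genes. Every AoD library lay above every UGR library for all 10 members, which was so for 18.7% of genes. Aif1 differed most (0.999, SE 0.275, adjusted p = 0.00927), just under the threshold on the fold, and passed it after quantile normalization (1.13) and with median-of-ratios size factors (1.05). Lyz2 (0.84), C1qb (0.81), Mrc1 (0.76), Csf1r (0.76) and Cx3cr1 (0.75) followed, and Ptprc (0.26, adjusted p = 0.181) differed least. Lyz2 summed with Lyz1 stood at 0.38 (adjusted p = 0.0543 by limma). The sum also holds reads that match Lyz1 alone. How shared reads bear on the place of Lyz2 in this order, and in the count with no fold threshold, was not tested. In E10 AoV against E10 UGR the sum stood at 0.47 (adjusted p = 0.0248 by limma). The comparisons at one stage share groups with each other and with the comparisons of stage, so they are not independent. Same-numbered E10 libraries may also be paired, since their deviations from group means correlated above 0, and the fit used no pairing.

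**Figure D4:**
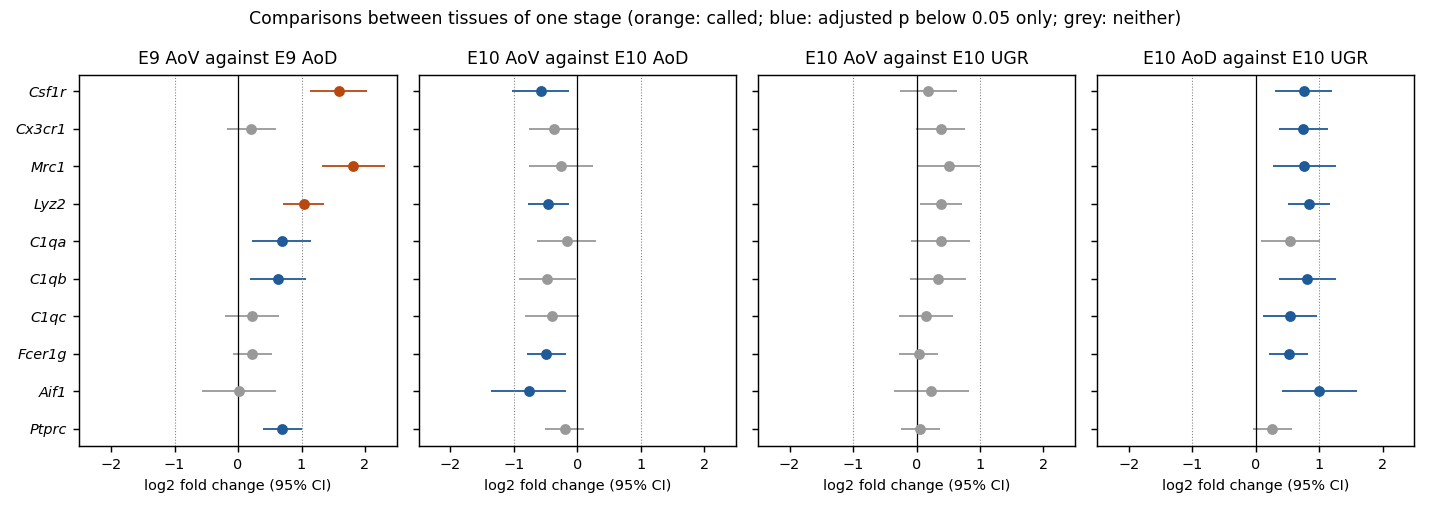
Log2 fold changes of the members between tissues of the same stage, with 95% confidence intervals from limma, where a positive value is higher in the tissue named first. Only Csf1r, Mrc1 and Lyz2 in E9 AoV against E9 AoD are called (orange), and blue marks an adjusted p below 0.05 without the fold.

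The order of the 5 group means was the same for 9 members, with AoD, AoV and UGR at E10 followed by AoV and then AoD at E9 from high to low, and Aif1 differed from it only in the E9 groups. Summed over the members the ranges were 3.49 to 5.84 RPM in E9 AoD, 9.86 to 12.2 RPM in E9 AoV, 81.5 to 94.6 RPM in AoD, 61.4 to 77.3 RPM in AoV and 50.3 to 60.01 RPM in UGR at E10, and none of these overlapped. Over the 15 libraries the 45 pairs of members had a Pearson correlation of log2(RPM + 0.1) between 0.904 and 0.994, with a median of 0.971, and these points share the 5 group means. After the group means were taken off, it lay between -0.0492 and 0.85 with a median of 0.429, and 43 of the 45 pairs were above 0, where the points share library depth.

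Genes whose pattern over the 15 libraries was among the most like the mean of the standardized members were F13a1 (Pearson r = 0.997), Fcrls (0.994), 5430435G22Rik (0.992), Tifab (0.992), Ncf1 (0.989), Nckap1l (0.989), P2ry6 (0.988), Bgn (0.988) and C3ar1 (0.988). F13a1, the A subunit of coagulation factor XIII, went from a mean of 0.484 RPM in E9 AoD and 0.952 RPM in E9 AoV to 12.5 RPM in AoD, 7.46 RPM in AoV and 6.68 RPM in UGR at E10. Over the E10 libraries alone r was lower for these genes, from 0.571 for P2ry6 to 0.958 for Nckap1l, with 0.752 for Bgn. Of 18543 tested genes outside the members 540 (2.91%) had an r above 0.9 over the 15 libraries. Bgn, the matrix proteoglycan biglycan, was far more abundant than any member, at 23.5 RPM in E9 AoD and 75.2 RPM in E10 AoD.

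Genes with related roles were followed as lists. Of the 24 tested among 30 other macrophage genes, 17 rose and 1 fell in AoV (median log2 fold change 1.82), and 17 (Lyve1 in place of Cd14) rose and 0 fell in AoD (2.08), beside the 6.04% and 8.6% of all tested genes given above. Adgre1, the F4/80 antigen, measured 0.172, 0.0537 and 0.0214 RPM in E9 AoD and 0.114, 0.0464 and 0.0713 RPM in E9 AoV. At E10 it measured 2.97, 4.47 and 3.03 RPM in AoD, 2.46, 2.81 and 2.72 RPM in AoV and 1.9, 2.02 and 2.25 RPM in UGR, and it rose by 4.36 in AoD and 3.98 in AoV on the log2 scale. Ctss, the lysosomal protease cathepsin S, rose by 4.04 in AoD and 3.64 in AoV, and Ms4a6c by 3.50 and 2.54. Lyve1 was the gene of the list that fell in AoV (-1.17), while it rose in AoD (1.42). Ms4a7 was at most 0.0593 RPM and Clec4n at most 0.166 RPM in any library.

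Of 6 tested genes on a list of 7 microglia-enriched genes, 2 rose and 1 fell in AoV and 3 rose and 1 fell in AoD. P2ry12, a purinergic receptor of microglia, rose by 3.33 in AoD and 2.61 in AoV, and P2ry13 by 2.53 and 2.22. Sall1, which kidney progenitors also express, fell by 2.30 in AoD and by 1.88 in AoV from 149, 174 and 186 RPM in E9 AoD. Tmem119, which mesenchyme also expresses, rose in AoD (1.51) and stood at -0.44 in AoV, and its interaction was called (-1.95). Siglech was at most 0.256 RPM.

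Transcription factors and growth factors of the lineage gave 5 rises and 1 fall of 11 tested in AoV and 4 rises and 0 falls in AoD. Spi1 measured 0.565, 0.618 and 0.406 RPM in AoD and 2.46, 1.99 and 1.85 RPM in AoV at E9, and 5.56, 6.2 and 5.68 RPM in AoD, 4.88, 6.04 and 7.4 RPM in AoV and 2.78, 2.8 and 2.25 RPM in UGR at E10. It rose by 3.25 in AoD and 1.49 in AoV, was higher in AoV than AoD at E9 (1.81), and its interaction was called (-1.76), as for Csf1r and Mrc1. It was called higher in both aortic regions than in UGR, by 1.13 for AoD and 1.18 for AoV, where 0 of the 10 members were. Maf rose by 2.38 and 1.40, Zeb2 rose in AoV (1.67), and Cebpa fell in AoV (-1.54). Among 5 genes for proteins that bind member products, of which 3 were tested, 0 changed in AoV and 1, Lgals1, rose in AoD (1.76). Named as the ligands of Csf1r and Cx3cr1 after their values were seen, Csf1 (0.70 in AoD and 0.46 in AoV) and Cx3cl1 (0.72 and 0.47) did not reach the fold, and Il34 had at most 0.452 RPM.

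Of 10 tested partners of C1q in the complement system, 4 rose and 1 fell in AoV and 4 rose in AoD. The anaphylatoxin receptor genes C3ar1 and C5ar1 rose by 4.0 and 2.71 in AoD and by 2.95 and 3.11 in AoV on the log2 scale. C3, the central component that liver makes, was 3.97 higher in E9 AoV than E9 AoD and fell in AoV (-1.16). Vsig4, a complement receptor of resident macrophages, was at most 0.0428 RPM, and C4b at most 0.182 RPM. Downstream of Fcer1g, 4 of 11 tested genes of ITAM signalling rose in AoV and 7 in AoD with none lower, among them the exchange factor Vav1 (1.59 and 2.48) and the adaptor Lcp2 (1.17 and 2.05), while Btk rose in AoD (1.97) and stood at 0.63 in AoV.

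**Figure D5:**
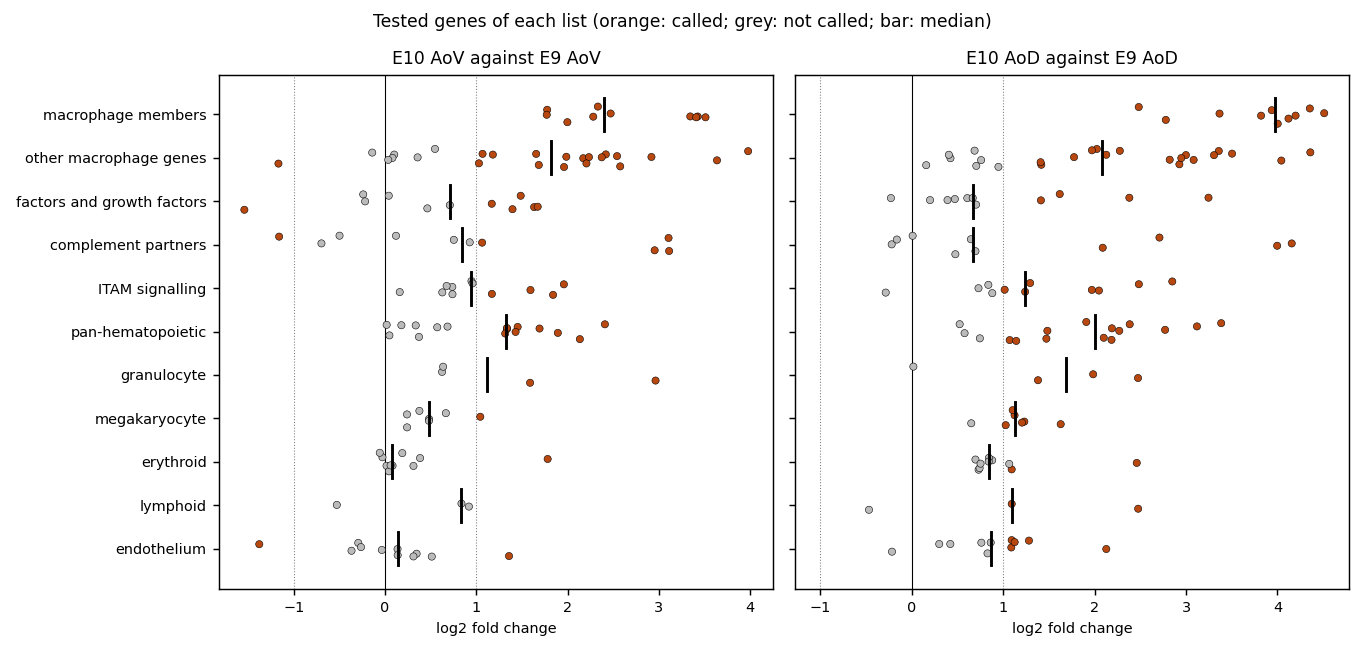
Log2 fold changes from E9 to E10 in AoV and AoD for the tested genes of each list, where each point is a gene and bars are list medians. The members have medians of 2.40 and 3.97, the erythroid list 0.071 and 0.84.

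Other blood cells were measured by their own lists. Of 16 tested pan-hematopoietic genes 9 rose in AoV (median 1.33) and 13 in AoD (2.0), with Cd52, Cd53 and Rac2 among them. Gfi1, a transcriptional repressor that emerging stem cells express, stood at 3.65 on the log2 scale in E10 AoV against UGR. Only 4 of 15 granulocyte genes were tested, of which 2 rose in AoV and 3 in AoD. Mpo rose in both regions, Csf3r and Prtn3 in AoD and Epx in AoV, the list summed to 1.75 to 5.54 RPM at E9 and 8.23 to 11.7 RPM at E10, and Ctsg stayed at or under 0.0246 RPM. Of 3 tested lymphoid genes of 12 on the list, 0 rose in AoV and 2 in AoD (Rag1 and Cd79b), the list summed to at most 3.8 RPM in any library, and Cd3e was at most 0.0232 RPM. Of 4 tested dendritic cell and monocyte genes of 14, 0 rose in either region, 1 fell in AoD and 0 in AoV. Of 7 tested megakaryocyte genes 1 rose in AoV and 6 in AoD. The mast cell and basophil list had 2 tested genes of 7, of which 1 rose in AoV and 1 rose and 1 fell in AoD. Ms4a2, a partner chain of Fcer1g, stood at -3.10 in E10 AoD against E10 UGR on the log2 scale, and the list summed to at most 3.52 RPM.

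Red cells were followed by globin and other erythroid genes. The 10 erythroid genes summed to 3872 to 8783 RPM in AoD and 3000 to 14197 RPM in AoV at E9, and 9222 to 12239 RPM in AoD, 5728 to 10998 RPM in AoV and 5675 to 8968 RPM in UGR at E10, so that the ranges of the stages overlapped in ventral tissue, while in dorsal tissue every E10 library lay above every E9 library. Of 10 tested, 1 rose in AoV and 2 in AoD. Endothelial genes summed to 904 to 960 RPM in AoD, 920 to 993 RPM in AoV and 586 to 635 RPM in UGR at E10, with 1 rise and 1 fall of 11 in AoV and 5 rises in AoD. The liver and endoderm list fell with stage for 9 of 9 genes in AoV and 6 of 9 in AoD, the neural tube list fell for 4 of 6 and 6 of 6, and the urogenital ridge list gave 5 rises of 8 in AoV and 2 rises and 4 falls in AoD. The part of these lists in the member values was not tested. For scale, 11% of all tested genes in AoV and 12.6% in AoD were called with stage in either direction. These shares are from the fit with Lyz1 and Lyz2 summed.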

How the data were processed

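Tissue RNA of 15 pools was sequenced as single-end reads from TruSeq libraries. According to the study's methods, the authors aligned reads with TopHat and Bowtie 0.12.3 to NCBI37/mm9, summed them over Ensembl genes in GeneProf and divided reads that matched several genes in proportion to uniquely matching reads. The deposited RPM (reads-per-million) values were scaled by the authors to the reads assigned to genes in each library, rounded, and not adjusted for length. The deposited table also holds the authors' log2 fold changes from DESeq, and beside them their adjusted p-values, which were not used here. No sample column was left out.

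Columns were assigned to groups by the labels. RPM was transformed as log2(RPM + 0.1), which understates fold changes of low genes. All genes that reached 0.5 RPM in 1 library or more were fitted with limma 3.58.1 in R 4.3.3, using group means over all libraries, no covariate and an intensity trend, and Benjamini-Hochberg adjustment over all tested genes. Called genes had an adjusted p below 0.05 and a log2 fold change of at least 1 in size. The steps were tested on simulated data. Reads were worked out as RPM times depth, where depth came from the spacing of low values. Whole reads were not recovered, since 64.0% to 66.9% of low values were whole to within 0.03 of a read. Limits and intervals from reads cover counting error only. Gene positions were read from GENCODE for NCBIM37.

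The members, and the marker and pathway lists written from general knowledge, were chosen with earlier results of these data known. Text names all members, in each list up to 4 called genes with the largest change and up to 2 of lowest level, and the 10 genes whose pattern was most like the members. Of the genes this rule names, 2 are not reported here.

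Alternatives changed the pseudocount, the filter, the normalization, the fold threshold, the moderation and the libraries in the fit, left out each library, or added the replicate number as a block. Fitting Lyz2 as a sum with Lyz1 was added after the data were seen. Libraries of the same number in different groups, checked by the correlation of their deviations from group means, had a median of 0.0638 (11 of 30 above 0.1). All 3 pairs were above 0.1 for E9 AoD with E9 AoV, so the numbers were taken to pair these groups. Every same-numbered pair of E10 libraries was above 0, from 0.0416 to 0.339, but not all were above 0.1. A pairing within E10 can therefore not be set aside. The main fit used no pairing, and a fit paired within E9 alone or within E10 alone was not run.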

Additional observations from a re-analysis of the deposited data

Results flagged for a closer look

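The change from E9 to E10 in ventral tissue differed from that in dorsal tissue, by limma's test of the difference itself, for 4 members and for Lyz1. On the log2 scale the ventral change minus the dorsal change was -2.16 for Csf1r (SE 0.297, adjusted p = 7.23e-05), -2.07 for Mrc1 (SE 0.329, adjusted p = 0.000243), -1.49 for Lyz2 (SE 0.217, adjusted p = 0.000121) and -1.10 for C1qb (SE 0.295, adjusted p = 0.0112). For Lyz1, the near copy with which Lyz2 shares reads, it was 1.87 (SE 0.432, adjusted p = 0.00442), in the other direction. For Csf1r, Mrc1 and Lyz2 the level in E9 AoV was higher than in E9 AoD. That enters the same difference of changes and is no separate observation. The liver, endoderm and endothelium lists were also higher in E9 AoV than in E9 AoD, and the part of those tissues was not tested.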

How the results depend on the processing

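All 10 members were called higher at E10 in AoV and in AoD in every alternative, except that Aif1 missed the fold with a pseudocount of 1 RPM. Of the member values under the alternatives 1704 kept their direction and side of the threshold, 12 lost the call, 29 gained it and 12 changed sign. Several alternatives, such as leaving out a library of neither compared group, cannot move the fold change. The first of these counts therefore overstates how stable the values were. With no fold threshold the count of members was 6 in E9 AoV against E9 AoD, 4 (all lower) in E10 AoV against E10 AoD and 8 in E10 AoD against E10 UGR. With the fold threshold kept, the count in E10 AoD against E10 UGR was 0 in the main fit. It rose to 1 (Aif1) after quantile normalization and to 1 (Aif1) with median-of-ratios size factors. The interaction count was 2 with a pseudocount of 1 RPM and 6 with 0.02 RPM. The latter added C1qa (-1.18, adjusted p = 0.0332 by limma) and Ptprc (adjusted p = 0.00358 by limma). With 0.02 RPM C1qa was also called in E9 AoV against E9 AoD (1.01), which made 4 members. Leaving out each library in turn gave 10 to 10 members in both stage comparisons, 2 to 3 in E9 AoV against E9 AoD, 0 to 0 for E10 AoV against E10 AoD and against E10 UGR, 0 to 1 for E10 AoD against E10 UGR, and 3 to 7 for the interaction. With the replicate number as a block these counts were 10, 10, 3, 0, 0, 0 and 4, as without it, and the block changed no member's call. That block set 1 effect per number over both stages, so it does not show what pairing within E9 or within E10 would give. In E9 AoV against E9 AoD, Aif1 stood at -0.0042 with a pseudocount of 1 RPM, -0.21 after quantile normalization, and between -0.24 and 0.34 when single libraries were left out. After quantile normalization Cx3cr1 stood at -0.00042 and C1qc at -0.11. In E10 AoV against E10 AoD, C1qa ran from -0.37 to 0.014 (without E10 AoV replicate 1) when single libraries were left out, and Lyz2 summed with Lyz1 stood at 0.095, and in E10 AoD against E10 UGR this sum stood at 0.38, against 0.84 for Lyz2 alone. In E10 AoV against E10 UGR, Fcer1g ran from -0.077 to 0.10 and Ptprc from -0.0071 to 0.14 when single libraries were left out. C1qb lost its interaction call with a pseudocount of 1 RPM, after quantile normalization and without E9 AoD replicate 3 or E9 AoV replicate 1. The cause was not tested. Depth limits C1qa and Aif1 at E9.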
